A study of Mus musculus with 3 samples.

Results

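Type I interferon response genes were followed across T cells recovered from mouse melanomas. The group was chosen by name, from a list of 43 genes known to be induced by type I interferon, and 42 of them were rows of the deposited gene table of 14811 genes. Earlier results of these data were known when it was chosen, so shares set against all genes describe the list and are no separate support. Mx1, the remaining listed gene, was not analysed here. All 42 had at least 20 UMIs (unique molecular identifiers, each marking 1 captured transcript) in every comparison below, so none was lost to the filter on low counts.

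Type I interferons are secreted proteins that signal through a receptor made of Ifnar1 and Ifnar2. The receptor activates the kinases Jak1 and Tyk2, and these lead to a complex holding STAT2 and IRF9 that binds interferon-stimulated response elements (ISRE) in promoters. Its targets include sensors of foreign RNA and DNA, antiviral proteins such as the IFIT, OAS and Schlafen families, and the ubiquitin-like protein ISG15 with its enzymes. Interferon gamma signals through another receptor and acts at gamma-activated sites (GAS), and many of these genes answer to both. In T cells of tumors, these genes are widely used as a readout of interferon exposure.

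The cells came from mice bearing B16F10 tumors, a transplanted mouse melanoma line grown under the skin. On day 1 after implantation purified T cells were injected into the tail vein, either CD4+ cells from a CD45.1 source or CD8+ cells from a CD45.2 source, so that the congenic marker told the injected lineages apart. Tumors were taken on day 11 from 10 mice and pooled, and the transferred cells were sorted into 4 populations: CD4+, CD4+CD8+, CD8+ and CD8+CD4+. Each population was given its own hashtag antibody, all were mixed in about equal numbers, and about 6200 cells were loaded on a droplet chip with a 5′ kit as 1 library. The labels give the treatment as untreated for all of them and name no strain, sex or age.

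The deposited tables held 5564 cells. Each cell had a hashtag number from 1 to 4, which no label ties to a sorted population, and an authors' class. The Cd8 class (2681 cells) and the Cd4 class (2477 cells) hold the cells outside the class Tdp. All 406 Tdp cells had a UMI of Cd4 and of Cd8a or Cd8b1, as did 1.57% of the Cd8 class and 5.77% of the Cd4 class. By identity, 313 of them counted as Cd8 and 93 as Cd4. Median depth was 4159 UMIs per cell in the Cd8 class, 3478 in the Cd4 class, 4981 in Cd8-identity Tdp and 4668 in Cd4-identity Tdp cells. Cd3e, a subunit of the T cell receptor complex, stood between 1228 and 1363 CPM (a scaled count defined below) in the 4 classes. Markers of other cell types were also present. Summed over 12 macrophage or monocyte markers, the level was 1203 CPM in the Cd8 class, 548 CPM in the Cd4 class, 427 CPM in Cd8-identity Tdp and 78.6 CPM in Cd4-identity Tdp cells. Of these 12 genes only Csf1r, C1qb and Ms4a7 were at 0, and only in Cd4-identity Tdp cells. Plasmacytoid dendritic cells produce type I interferon, and 6 of their 8 listed markers were higher together in the Tdp cells. In Cd8-identity Tdp, Cd4-identity Tdp, Cd8-class and Cd4-class cells their sum was 117, 107, 32.8 and 16.9 CPM. Left aside were Irf8 and Bst2, the latter itself a member. In the same order, Irf8 stood at 74.4, 55.9, 87.8 and 45.8 CPM, and all 8 markers summed to 670, 711, 559 and 745 CPM. Possible doublets, taken as cells with UMIs of several Trbv genes (at least 2 UMIs each), of which a T cell normally uses 1, were 38.7% of Cd4-identity Tdp, 19.2% of Cd8-identity Tdp, 12.8% of Cd8-class and 9.29% of Cd4-class cells. A hashtag number is a part of 1 pool and not a replicate, so no test across samples was possible and no p-value is given. Intervals (95%) cover counting error only.

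The choice by name used no promoter sequence. Promoter entries, which run from 250 bases before to 50 bases after a start site, were found in RefSeq (GRCm38.p6, the assembly also called mm10) for 35 of the 43 listed genes. The ISRE core, searched on both strands as GAAA, any 2 bases and GAAA again, was present in 21 of these 35 genes (60.0%), against 4.01% of the 10965 genes of the table with a promoter entry. The GAS core, TTCNNNGAA, which reads alike on both strands and may overlap an ISRE core, was present in 8 of 35 (22.9%), against 8.24%. A match describes letters in a window and not a bound site. The windows below are examples from members called in at least 1 comparison that hold a match. Each reads 5′ to 3′ in the direction of its gene, and capitals mark the match, which reads TTTC, 2 bases, TTTC where the ISRE core lies on the other strand.
Isg15 (chr4:156200866-156200905, minus strand): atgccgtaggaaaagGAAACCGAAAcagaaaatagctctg
Ifit1 (chr19:34640789-34640828, plus strand): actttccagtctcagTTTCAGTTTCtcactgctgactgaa
Ifit3b (chr19:34607788-34607827, plus strand): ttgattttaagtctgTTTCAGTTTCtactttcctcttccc
Rsad2 (chr12:26456548-26456587, minus strand): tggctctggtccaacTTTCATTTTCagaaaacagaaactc
Bst2 (chr8:71537572-71537611, minus strand): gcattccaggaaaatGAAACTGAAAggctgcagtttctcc
Igtp (chr11:58199507-58199546, plus strand): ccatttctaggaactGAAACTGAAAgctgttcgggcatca
Isg20 (chr7:78913336-78913374, plus strand): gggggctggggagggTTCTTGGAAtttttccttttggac

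The Isg15 entry held 3 overlapping ISRE cores, of which the middle one, 72 bases before the start, is shown. Ifit1 and Ifit3b held 2 cores each, and the one nearer the start is shown. Bst2 held 2 overlapping ISRE cores and a GAS core, and the Igtp entry held a GAS core 45 bases before its start, close to the ISRE core 34 bases before it. Isg20 is the exception among those printed, with a GAS core and no ISRE core in its entry. Ifit3 has the same 40 bases as Ifit3b, at chr19:34583392-34583431. Other members called below, Irf7, Oasl1, Oasl2, Slfn1, Dtx3l and Cmpk2, had an entry with neither core. The paralogs Ifit3 and Ifit3b lie near each other on chromosome 19 and are nearly identical. The annotated span of Ifit1bl1 (chr19:34592888-34662981) takes in both Ifit3b and Ifit1, so counts of these IFIT genes are uncertain. The same holds for Dtx3l and Parp9, whose annotated ends overlap on chromosome 16. The sources used here do not say whether reads were counted by strand.

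Levels are a gene's UMIs per 1000000 UMIs of the group (CPM), the total leaving aside genes of antigen receptors. The kit counts 1 end of each transcript, so levels were not divided by gene length. Over all cells the members took 7795 CPM together, of which the single gene Ly6a took 24.3%. Ly6a encodes the surface protein Ly-6A/E (Sca-1), a marker of activated T cells. Its level was 1892 CPM, followed by Bst2 (tetherin, which holds budding virus at the membrane) at 542 CPM. Isg15 stood at 480 CPM, Ifi47, an immunity-related GTPase, at 382 CPM, and Ifi203, of the PYHIN family, at 346 CPM. The lowest were Oasl1 at 14.7 CPM, Ifit3b at 33.1 CPM, Dhx58 at 41.6 CPM, Ifit2 at 41.7 CPM and Cmpk2 at 49.8 CPM. Ly6a thus stood far above the other members.

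**Figure D1:**
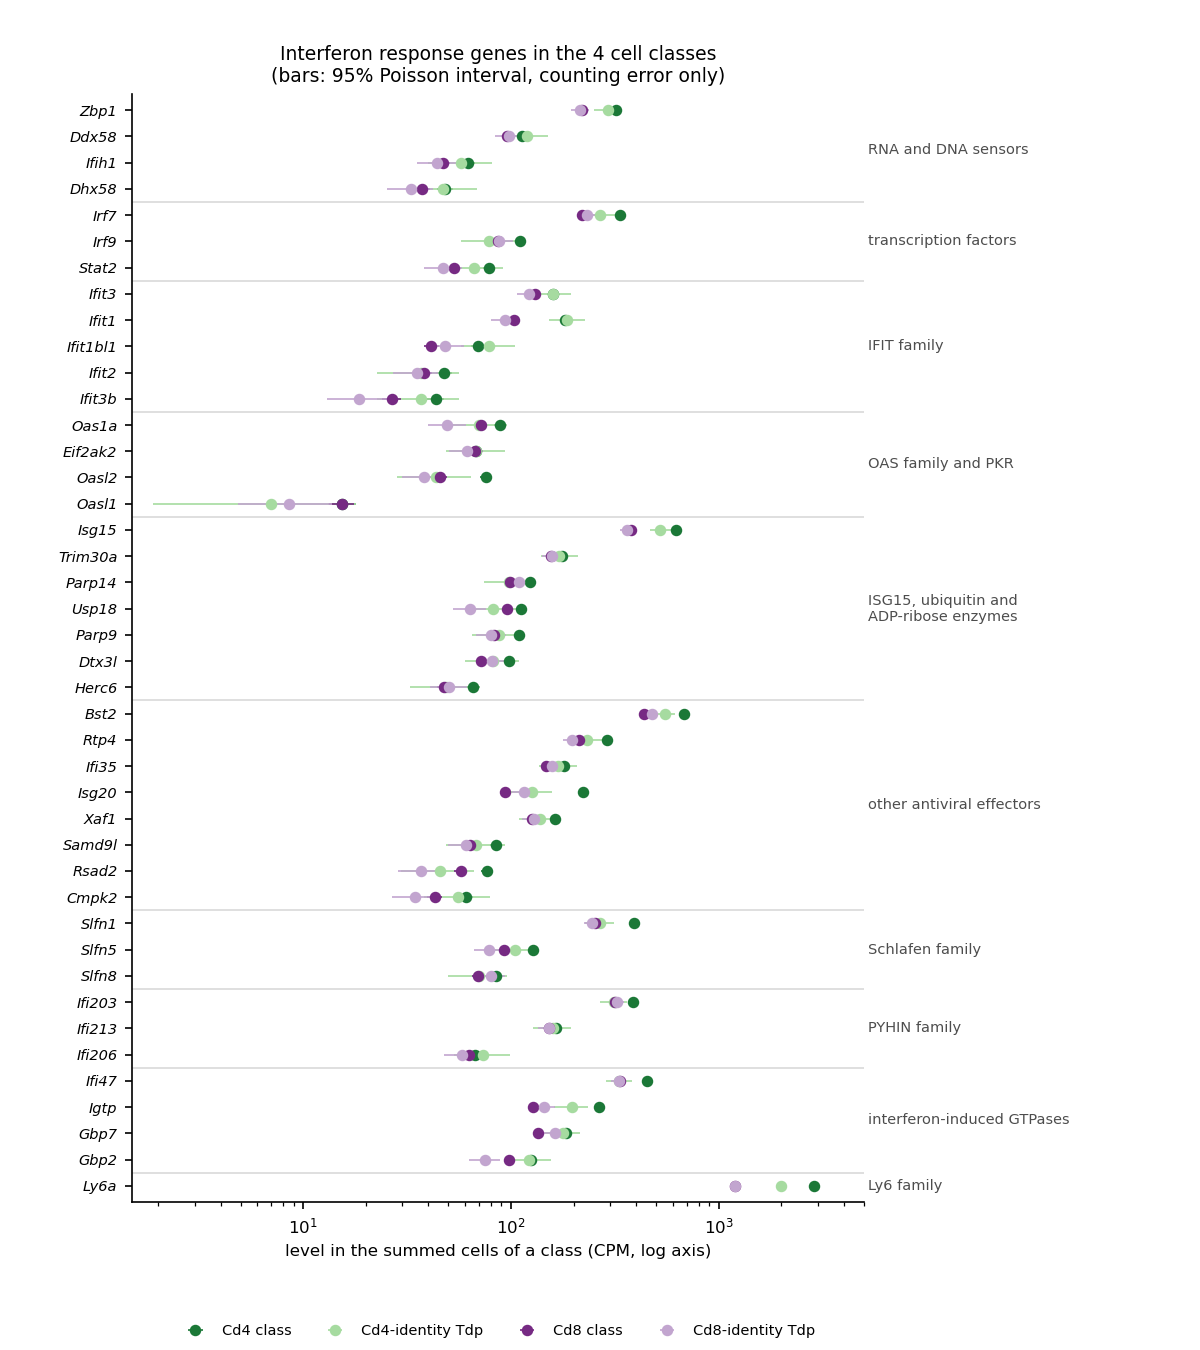
Level of each of the 42 members in the summed cells of each class, in CPM on a log axis, grouped by role, with 95% Poisson intervals for counting error. The Cd4 class (dark green) lies to the right of the Cd8 class (dark purple) for every member, with the widest gaps for Ly6a, Isg20 and Igtp and almost none for Oasl1 and Eif2ak2.

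The first comparison asks how the Cd8 class and the Cd4 class differ. A Cd4 UMI was found in 2.65% and 63.4% of their cells, and a Cd8a or Cd8b1 UMI in 86.3% and 12.6%. The injected CD4+ and CD8+ cells came from different sources (CD45.1 and CD45.2), so lineage and source cannot be told apart here. Every one of the 42 members had a lower level in the Cd8 class than in the Cd4 class. The summed members stood at 6253 CPM (6211 to 6295) in the Cd8 class and 10019 CPM (9959 to 10079) in the Cd4 class, a ratio of 0.624 (0.618 to 0.630). Ly6a carried much of this: it stood at 1199 CPM in the Cd8 class and 2885 CPM in the Cd4 class, 2.41-fold lower (2.36 to 2.45). Without Ly6a, the ratio of the summed members was 0.708 (0.701 to 0.716), short of the 1.5-fold used for a call.

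A gene was called when its levels differed at least 1.5-fold and its interval left out 1. By this rule 11 of 42 members were lower in the Cd8 class, where 6.55% of the 11643 genes measured were lower, and 0 were higher, where 8.19% of genes were. For 39 members the interval lay wholly below 1, as it did for 20.1% of all genes, and for 0 wholly above 1, as for 18.1% of all genes. The median log2 ratio was -0.39 for the members and -0.01 for all genes.

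Among the antiviral effectors, Isg20, an exonuclease that degrades RNA, stood at 93.7 CPM in the Cd8 class and 222 CPM in the Cd4 class, a ratio of 0.421 (0.393 to 0.451). Bst2 stood at 439 CPM and 683 CPM, a ratio of 0.643. The other members of this group were not called, and Ifi35 was the nearest to even at 147 CPM and 179 CPM. Of the 4 interferon-induced GTPases, which act on the membranes around intracellular microbes, Igtp (Irgm3) stood at 127 CPM and 264 CPM, a ratio of 0.479 (0.451 to 0.509). Ifi47, Gbp2 and Gbp7 had ratios of 0.740, 0.780 and 0.728 and were not called.

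The IFIT proteins bind foreign RNA and block its translation, and 3 of their 5 genes were lower. Ifit1 stood at 103 CPM in the Cd8 class and 181 CPM in the Cd4 class (ratio 0.570), Ifit1bl1 at 41.3 CPM and 69.1 CPM (0.598) and Ifit3b at 26.7 CPM and 43.5 CPM (0.614). Ifit3, the close paralog of Ifit3b, stood at 131 CPM and 159 CPM and was not called. Of the 7 genes of the ISG15, ubiquitin and ADP-ribose group, 1 was called: Isg15, at 379 CPM against 624 CPM (0.608). Its protease Usp18, a brake on the interferon receptor, stood at 95.8 CPM and 112 CPM. Of the 4 OAS family and PKR genes, which sense double-stranded RNA, Oasl2 was called lower at 45.6 CPM against 75.7 CPM (0.603), while Eif2ak2 (PKR) at 67.1 CPM against 68.0 CPM and Oasl1 at 15.3 CPM against 15.4 CPM were nearly level.

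Among transcription factors, Irf7, which drives the second wave of interferon genes, stood at 220 CPM in the Cd8 class and 335 CPM in the Cd4 class (0.658), just inside the limit for a call. Stat2, at 52.9 CPM and 78.2 CPM (0.676), fell just outside it. Of the Schlafen genes, which restrain growth and viral translation, Slfn1 was called at 253 CPM against 389 CPM (0.651). None of the 4 RNA and DNA sensors (Ddx58, Ifih1, Dhx58 and Zbp1) and none of the 3 PYHIN genes (Ifi203, Ifi206 and Ifi213) was called. The PYHIN genes were among the closest to even as a group, with a summed ratio of 0.857.

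**Figure D2:**
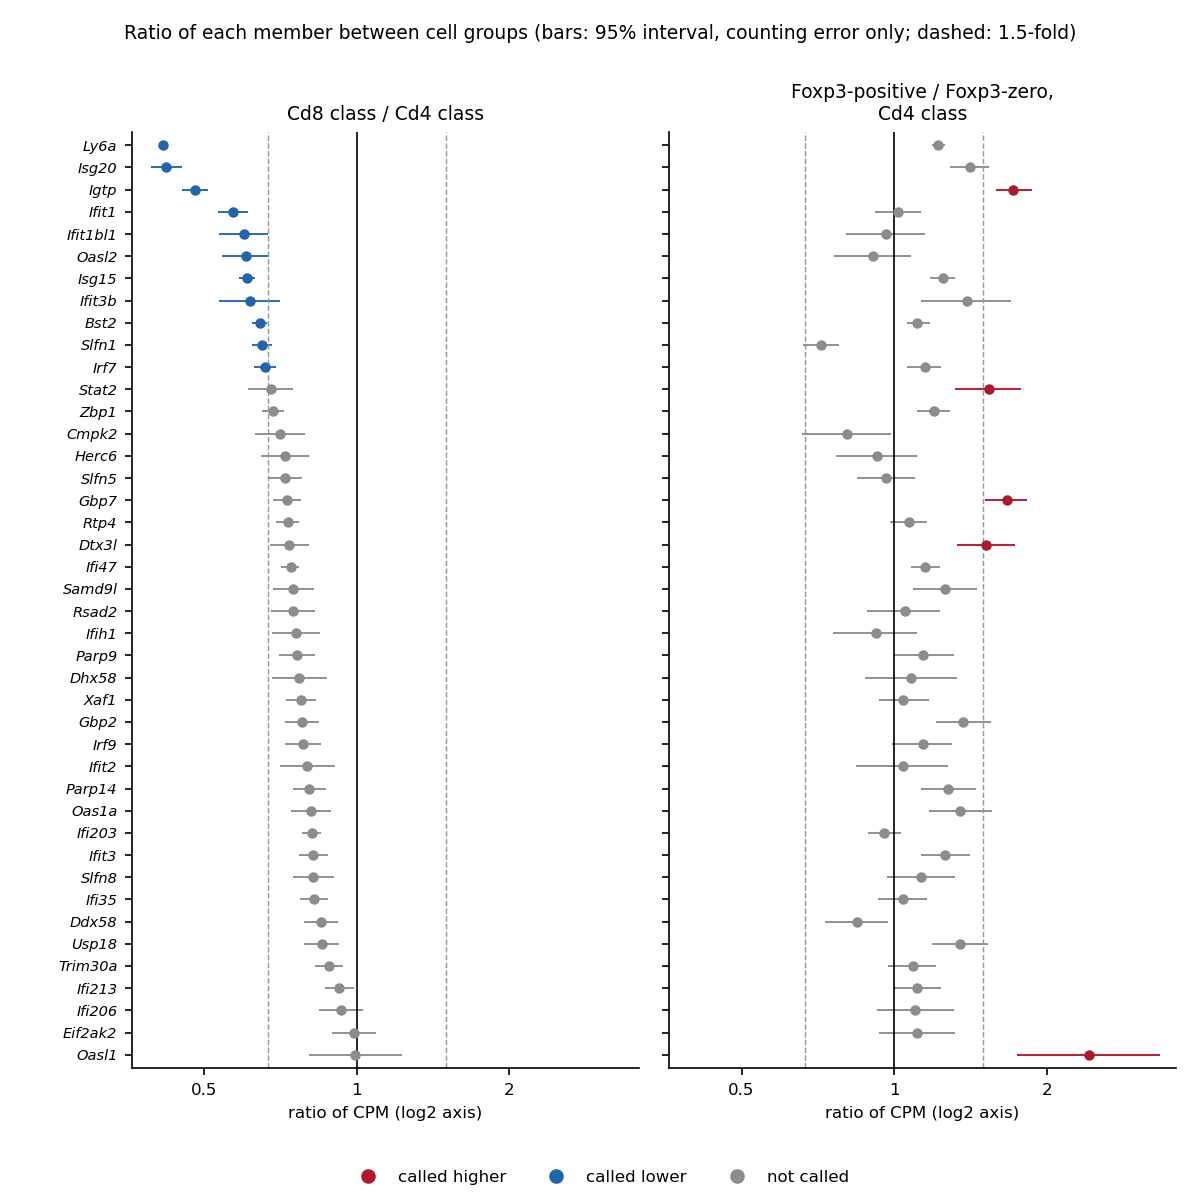
Ratio of CPM for each member with its 95% interval for counting error on a log2 axis, for the Cd8 class against the Cd4 class (left) and for Foxp3-positive against Foxp3-zero cells of the Cd4 class (right), in the same gene order. All 42 points on the left lie below 1, from 0.415 to 0.992, while the points on the right run from 0.719 (Slfn1) to 2.43 (Oasl1).

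Hashtag numbers allow the same ratio to be taken inside each part of the pool. Each number held cells of both classes, although each sorted population had its own hashtag antibody, and the reason was not tested. Cd8-class and Cd4-class cells numbered 387 and 1137 in hashtag 1 and 834 and 755 in hashtag 2. In hashtag 3 they numbered 867 and 202, and in hashtag 4 593 and 383. The ratios by hashtag are thus not repeats of a contrast between sorted lineages. Within hashtags 2, 3 and 4 the summed ratio of the Cd8 to the Cd4 class was 0.606, 0.606 and 0.622, and within hashtag 1 it was 0.784 (0.771 to 0.798). Ly6a stood at 1541, 1153, 1148 and 1092 CPM in hashtags 1 to 4 of the Cd8 class and at 2953, 2865, 2706 and 2788 CPM in those of the Cd4 class, so the ranges did not overlap. Isg20 likewise stood at 141, 81.9, 84.3 and 90.0 CPM in the Cd8 class and at 236, 216, 233 and 184 CPM in the Cd4 class. Isg15 was different: it stood at 627, 361, 306 and 342 CPM in the Cd8 class and at 645, 650, 536 and 557 CPM in the Cd4 class, so that hashtag 1 of the Cd8 class fell inside the Cd4 range. Irf7 in hashtag 1 was higher in the Cd8 class, at 367 CPM against 338 CPM.

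Cells carrying macrophage, monocyte or dendritic cell UMIs (at least 2) made up 13.5% of the Cd8 class and 4.12% of the Cd4 class. Member levels in these cells were 7321 CPM in the Cd8 class, above the 5959 CPM of its other cells. Leaving them out of both classes, a choice made after the data were seen, gave a summed ratio of 0.598 (0.592 to 0.604), with 19 members lower in place of 11. The share of all genes called lower also rose, from 6.55% of 11643 to 8.90% of 10968. The part of the cells carrying such UMIs in the gap between the classes was not tested beyond leaving them out. Oasl2 moved most in this step among the members called, from a ratio of 0.603 to 0.309.

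Ly6a had a protein counterpart in the deposited antibody table, which was very sparse. Of 138 antibodies, the one against Ly-6A/E had 91 of 4315 counts. It took 3.07% (exact binomial interval 2.36 to 3.92) of 1988 antibody counts in the Cd4 class and 1.29% (0.841 to 1.88) of 2023 in the Cd8 class. The intervals did not overlap, and the order was that of the transcript. In Cd8-identity and Cd4-identity Tdp cells the antibody had 1 and 3 counts, too few to compare.

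Tdp cells were compared with the Cd8 class or the Cd4 class, by their identity. The Cd8 class and the Cd4 class each enter more than 1 comparison, so these are not independent. In Cd8-identity Tdp cells the summed members stood at 6191 CPM, against 6253 CPM in the Cd8 class, a ratio of 0.990 (0.971 to 1.01). Ly6a was level, at 1196 CPM and 1199 CPM. Called lower were 3 of 42 members, where 4.60% of genes were lower, and 0 were called higher, where 2.07% were.

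These 3 were Rsad2 (viperin, which makes a chain-terminating nucleotide) at 36.7 CPM against 57.4 CPM, Usp18 at 63.3 CPM against 95.8 CPM, and Oasl1 at 8.51 CPM against 15.3 CPM. Their ratios were 0.639 (0.492 to 0.819), 0.661 (0.543 to 0.798) and 0.556 (0.312 to 0.924). Macrophage markers were also lower in the Cd8-identity Tdp cells, at 427 CPM against 1203 CPM. The 6 plasmacytoid markers were higher together, with Siglech at 27.1 CPM against 3.55 CPM, while Irf8 stood at 74.4 CPM against 87.8 CPM. Without cells carrying macrophage, monocyte or dendritic cell UMIs, Usp18 had a ratio of 0.574 and was still called, while Rsad2 at 0.749 and Oasl1 at 0.470 were not. Without cells carrying UMIs of any other cell type listed, plasmacytoid cells included, Usp18 stood at 0.513, still called, and Rsad2 at 0.989. Without possible doublets, 7 members were called lower in place of 3. The share of all genes called lower in that step is not given here. The summed ratio turned above 1 within hashtags 3 (1.07) and 4 (1.02), so no direction is given for it.

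In Cd4-identity Tdp cells the summed members stood at 7908 CPM (7679 to 8142), against 10019 CPM in the Cd4 class, a ratio of 0.789 (0.766 to 0.813). The ratio was below 1 for 37 of 42 members, and the median log2 ratio was -0.27 against -0.03 for all genes. Called lower were 3 members, where 2.92% of genes were lower, and 0 were higher, where 2.20% were. Isg20 stood at 126 CPM against 222 CPM (0.566), Oasl2 at 43.7 CPM against 75.7 CPM (0.577) and Rsad2 at 45.4 CPM against 76.6 CPM (0.593). Ly6a, at 1997 CPM against 2885 CPM (0.692), fell just short of a call. Without possible doublets, which left 57 of the 93 cells, 14 members were called lower and the summed ratio was 0.716 (0.685 to 0.748). Macrophage markers stood at 78.6 CPM against 548 CPM and Siglech at 22.7 CPM against 0.187 CPM. Without cells carrying UMIs of other cell types the summed ratio was 0.795, and 6 members were called lower. The share of all genes called lower in this step, or without possible doublets, is not given here. The IFIT genes were nearly level: summed, they stood at 498 CPM and 501 CPM. In Cd4-identity Tdp cells, the 5 highest cells of each gene held 36.4% of the Ifit1 UMIs and 42.9% of the Ifit3 UMIs. With 93 cells in this class the interval of a single gene is wide, and the summed ratio ran from 0.734 to 0.914 within hashtags 1, 2 and 4, where at least 20 cells were present.

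Between the Tdp classes, the summed members were again lower on the Cd8 side, with a ratio of 0.783 (0.756 to 0.810). Called lower in Cd8-identity Tdp cells were 6 of 42 members, where 3.09% of genes were lower, and 0 were higher, where 3.95% were. Ly6a stood at 1196 CPM against 1997 CPM (0.599), and Ifit1 at 93.6 CPM against 187 CPM (0.501). Ifit3b (0.507) and Ifit1bl1 (0.615) were again called, as between the Cd8 and Cd4 classes. In Cd4-identity Tdp cells, however, the 5 highest cells of each gene held 57.1% of the Ifit3b UMIs and 53.3% of the Ifit1bl1 UMIs. The other called genes were Gbp2 at 75.0 CPM against 122 CPM and Cmpk2, a nucleotide kinase encoded beside Rsad2, at 34.6 CPM against 55.9 CPM. Isg20, which had the lowest ratio after Ly6a between the Cd8 and Cd4 classes, was not called here, at 115 CPM against 126 CPM. Within hashtag 1 the summed ratio was 0.907 and 0 members were called.

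Foxp3 is the transcription factor that defines regulatory T cells, a suppressive subset of CD4+ cells. A Foxp3 UMI was found in 555 of the 2477 cells of the Cd4 class, and these were set against the other 1922. Regulatory T cell markers were higher in the former, the sum of 6 such genes, Foxp3 included, being 5086 CPM against 781 CPM. Median depth was 3345 and 3501 UMIs.

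The summed members stood at 11287 CPM (11152 to 11422) in Foxp3-positive cells and 9654 CPM (9587 to 9721) in Foxp3-zero cells, a ratio of 1.17 (1.15 to 1.19). It was above 1 in each hashtag number, from 1.11 to 1.32. Called higher were 5 of 42 members, a share near that of all genes, of which 9.62% were higher, and 0 were lower, where 7.60% of genes were. For 19 members the interval lay wholly above 1, as it did for 17.4% of all genes, and for 3 (Slfn1, Cmpk2 and Ddx58) wholly below 1, as for 15.3% of all genes.

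Oasl1, a regulator of Irf7 translation, stood at 28.4 CPM in Foxp3-positive and 11.7 CPM in Foxp3-zero cells, a ratio of 2.43 (1.75 to 3.35). The GTPases Igtp, at 391 CPM against 227 CPM (1.72), and Gbp7, at 268 CPM against 161 CPM (1.67), were also called. Stat2 stood at 107 CPM against 69.9 CPM (1.54) and Dtx3l, a ubiquitin ligase that pairs with Parp9, at 133 CPM against 87.7 CPM (1.52). These last genes sit at the limit: Stat2 was not called in thinned cells, and Dtx3l was not called without cycling cells. All 4 GTPases had intervals above 1, and their summed ratio was 1.40 (1.35 to 1.46).

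Summed ratios of the other groups were smaller. The ISG15, ubiquitin and ADP-ribose group stood at 1.23 (1.18 to 1.28), the transcription factors at 1.20, the OAS family and PKR at 1.19, the IFIT genes and the other antiviral effectors at 1.12 each and the sensors at 1.08. The PYHIN genes were level at 1.01 (0.955 to 1.07), and the Schlafen genes lay below even at 0.824 (0.773 to 0.876). Slfn1 had the lowest ratio of all members, 298 CPM against 415 CPM (0.719, 0.662 to 0.779). Ly6a stood at 3365 CPM against 2747 CPM (1.22). Macrophage or monocyte markers were 670 CPM in Foxp3-positive and 512 CPM in Foxp3-zero cells, and dendritic cell markers 179 CPM and 35.0 CPM. Without cells carrying such UMIs the summed ratio was again 1.17.

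Foxp3 UMIs were also present in 78 of the 2681 cells of the Cd8 class, a comparison added after the data were seen. The summed members stood at 7647 CPM against 6200 CPM, a ratio of 1.23 (1.19 to 1.27), and Ly6a at 2101 CPM against 1164 CPM (1.80). Called higher were 6 of 42 members, where 9.60% of genes were higher: Isg20 (1.90), Ly6a, Oasl2 (1.78), Irf7 (1.59), Slfn5 (1.54) and Igtp (1.54). Called lower were 4, where 3.46% of genes were: Ifit2 (0.364), Parp9 (0.551), Rsad2 (0.592) and Ifit3 (0.659). Macrophage or monocyte markers stood at 2604 CPM in these 78 cells and 1150 CPM in the rest, and T cell markers at 3591 CPM and 5451 CPM. The part of other cells in these values was not tested.

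Other genes of the pathway were followed from lists chosen by name, also with earlier results of these data known. None of 18 type I interferon genes was a row of the table, so the ligands were not analysed here. Of 7 negative regulators, Socs1, which blocks JAK kinases, was lower in the Cd8 class, at 139 CPM against 237 CPM in the Cd4 class (0.587), and 0 were higher. Without cells carrying macrophage, monocyte or dendritic cell UMIs, 3 of the 7 were lower (42.9%, against 8.90% of all genes) and 0 higher. Of 9 nucleic acid sensing genes in the table, Tlr3, Tlr7 and Tlr9 were higher in the Cd8 class, all below 5 CPM. Macrophage and dendritic cell markers were also higher there, as given above, and without cells carrying their UMIs 0 of the 7 genes still measured were called higher.

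Genes of the interferon gamma axis were split. Of 28, 7 (25.0%, against 6.55% of all genes) were lower in the Cd8 class, led by the GTPase Iigp1 at 21.1 CPM against 98.7 CPM (0.214) and Gbp10 at 8.65 CPM against 23.4 CPM (0.370). Another 4 (14.3%, against 8.19% of all genes) were higher, including Ifng itself at 103 CPM against 62.5 CPM (1.65) and the chemokine Cxcl9 at 31.4 CPM against 10.6 CPM (2.97). Without cells carrying macrophage, monocyte or dendritic cell UMIs, Ifng was the 1 higher gene of 27 (1.90) and 9 were lower (33.3%). Of all genes, 5.25% were higher and 8.90% lower in that step. Of 58 other interferon-induced genes, 12 (20.7%) were lower and 5 (8.62%) higher, the latter a share near that of all genes. Without those cells, 16 of 55 (29.1%) were lower and 1 (1.82%) was higher. Ifitm1, an antiviral membrane protein, stood at 134 CPM against 349 CPM (0.384). Ly6c2, of the same Ly6 family as Ly6a, went the other way at 1375 CPM against 371 CPM (3.71), and without those cells its ratio was 5.11.

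Foxp3-positive cells of the Cd4 class had 10 of 28 interferon gamma axis genes higher (35.7%, against 9.62% of all genes) and 1 lower (3.57%, against 7.60%). Iigp1 stood at 214 CPM against 65.5 CPM (3.26), Irf8, which dendritic cells also express, at 98.5 CPM against 30.6 CPM (3.22) and Ifngr2, a receptor chain for interferon gamma, at 28.4 CPM against 9.15 CPM (3.10). Ifng was the 1 lower gene, at 25.9 CPM against 73.1 CPM (0.354). Without cells carrying macrophage, monocyte or dendritic cell UMIs, 10 of 26 were higher and 1 lower, with Irf8 at 3.15 and Iigp1 at 3.57. Of receptor and signalling genes, 3 of 8 (37.5%) were higher: Irf5 (1.90), Ifnar1 (1.67) and Stat3 (1.53). The negative regulators Socs3 and Socs1 stood at 74.3 CPM against 26.9 CPM (2.77) and 416 CPM against 185 CPM (2.24), and 0 of 7 were lower. Without cells carrying macrophage, monocyte or dendritic cell UMIs, 2 of the 7 were higher (28.6%, against 9.74% of all genes). In that step 1 was lower (14.3%, against 8.03%).

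Cell-to-cell spread was examined after drawing each cell down to 2000 UMIs, which kept 5143 of the 5564 cells. The median cell then had 9 member UMIs in the Cd8 class and 17 in the Cd4 class, or 7 and 11 without Ly6a. Medians were 9 in Cd8-identity Tdp and 13 in Cd4-identity Tdp cells, and 21 in Foxp3-positive against 16 in Foxp3-zero cells of the Cd4 class. Every thinned cell of the Cd4 class had at least 1 member UMI, and 25 of 2500 in the Cd8 class had none.

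**Figure D3:**
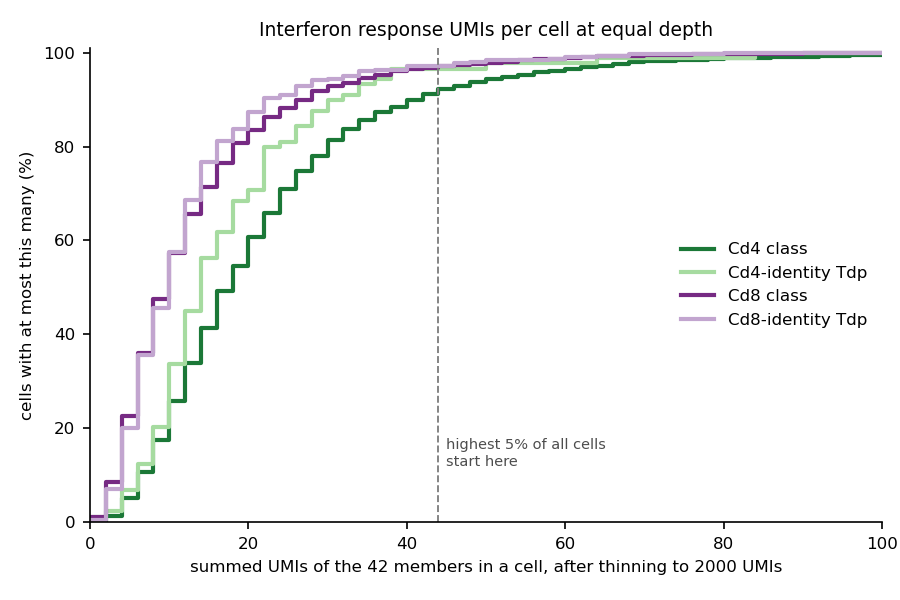
Share of cells (percent) with at most a given number of member UMIs after thinning to 2000 UMIs, for the 4 classes, with a dashed line where the highest 5% of all cells begin (44 UMIs). The curve of the Cd4 class rises latest, with a median of 17 UMIs, and the curves of the Cd8 class and Cd8-identity Tdp cells nearly coincide, with medians of 9.

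The distribution had a long upper tail. The 267 cells with at least 44 member UMIs, taken as the highest 5%, held 19.7% of all member UMIs of the thinned cells. They made up 8.06% (6.97 to 9.27) of the Cd4 class and 2.96% (2.33 to 3.70) of the Cd8 class. Among Tdp cells they were 2.91% of those with a Cd8 identity and 3.37% (0.701 to 9.54) of those with a Cd4 identity. Inside the Cd4 class they were 10.5% (7.95 to 13.6) of Foxp3-positive and 7.38% (6.20 to 8.70) of Foxp3-zero cells, with intervals that overlap. The limit is a range and not a cell type, and 172 cells lay within 5 UMIs of it. Macrophage or monocyte markers stood at 1122 CPM in the top cells and 474 CPM in the others, dendritic cell markers at 22.5 CPM and 76.6 CPM, and cycling markers at 610 CPM and 935 CPM. The part of such RNA in the upper tail was not tested.

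To see which members mark this tail, each was left out in turn and the highest 5% were taken by the other 41. Rsad2 had a UMI in 58.0% of the top cells and 4.79% of the others, a ratio of 12.1. Oasl1 followed with 17.4% and 1.54% (11.3), then Ifit3b with 39.9% and 4.26% (9.37). Ifit2 and Cmpk2 came next, with ratios of 7.42 and 6.35. These are also 4 of the 5 members lowest over all cells, with Rsad2 added, and a gene found in few cells has more room for a high ratio.

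Isg15 was found in nearly every top cell, at 96.5% against 32.1%. Ly6a was common in both sets, at 95.3% against 78.5% (1.21). The shares lay closer together for Irf9, the DNA-binding part of the interferon complex, at 28.6% and 17.6% (1.63). A ratio of shares has little room where most other cells already hold a UMI, as for Ly6a. The median ratio was 2.93 over the 42 members and 0.984 over 4570 other genes with a UMI in at least 5% of the top cells. Within the Cd4 class and the Cd8 class taken alone, Rsad2, Oasl1 and Ifit3b also led. For Rsad2 the shares were 64.9% against 6.62% in the Cd4 class and 51.6% against 3.75% in the Cd8 class.

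**Figure D4:**
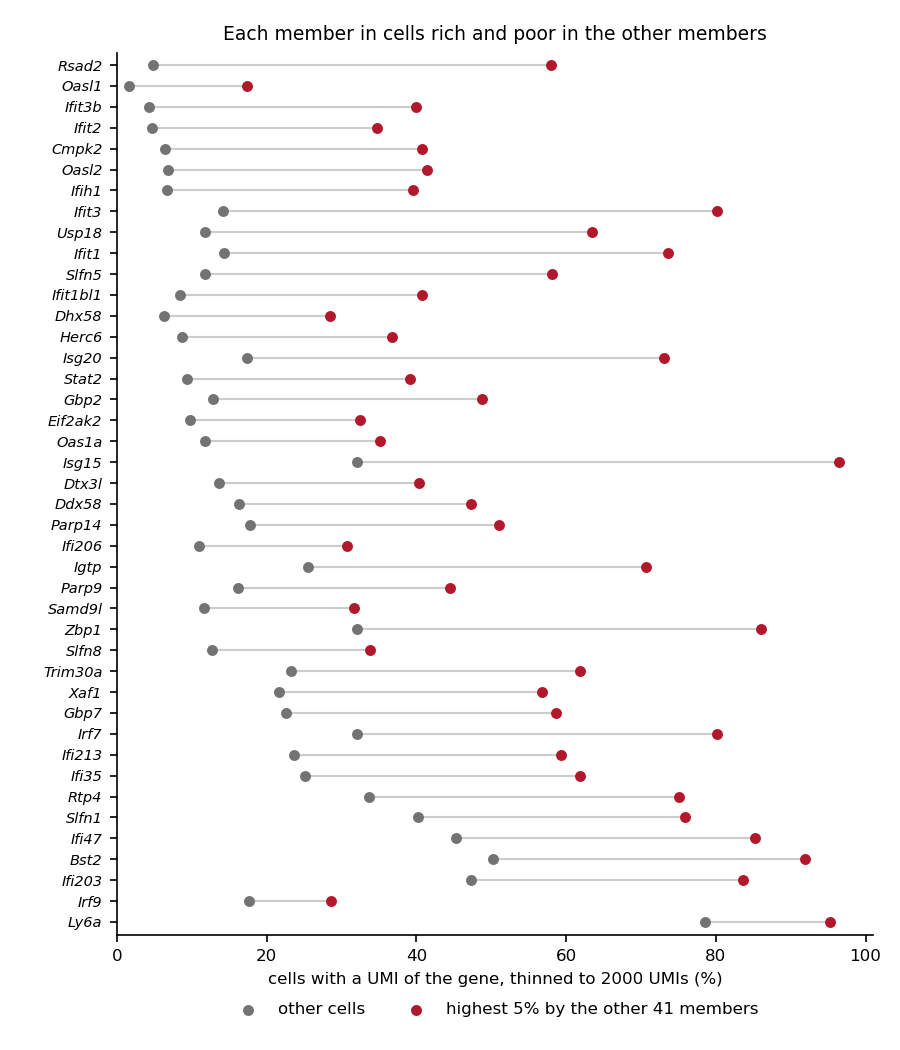
Percent of thinned cells with a UMI of each member, in the highest 5% of cells by the other 41 members (red) and in all other cells (grey), ordered by the ratio of the shares. Rsad2 shows a ratio of 12.1, while Ly6a is common in both sets at 95.3% and 78.5%.

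Genes outside the list were ranked where a UMI was present in at least 5% of the top cells, antigen receptor genes left aside. The 12 with the largest ratios were Trim30c, Ifi204, Cxcl10, Gm4951, Phf11d, Ifi44, Oas2, Tgtp1, Gm47242, Iigp1, Gbp10 and Parp12. A gene could enter this ranking only through the top cells, so it describes those cells and is no separate support. The pathway lists hold 10 of these 12, the others being Trim30c and Gm47242. Cxcl10, a chemokine that draws T cells, had a UMI in 34.8% of top cells and 3.67% of the others (9.49). Ifi204, of the PYHIN family, had 14.6% and 1.29% (11.3), and Trim30c, a relative of the member Trim30a, had 6.74% and 0.472% (14.3).

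Hashtag numbers were compared inside each class as parts of the same pool. In the Cd4 class the summed members stood at 10196, 10161, 9530 and 9441 CPM in hashtags 1 to 4. No member was called for hashtag 2 against 1, where 1.06% of genes were higher and 4.97% lower, nor for hashtag 4 against 1, where 1.54% were higher and 2.41% lower. The summed ratios were 0.997 (0.983 to 1.01) and 0.926 (0.910 to 0.943).

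In the Cd8 class the summed members stood at 7996, 6155, 5780 and 5868 CPM. Hashtag 4 against 3 had a summed ratio of 1.02 (0.996 to 1.04) and 3 of 42 members higher, where 7.58% of genes were: Oasl1 (1.89), Oasl2 (1.69) and Slfn5 (1.69). Hashtag 2 against 3 had 1.06 (1.05 to 1.08) and 3 higher, where 5.15% of genes were: Oasl2 (1.77), Gbp2 (1.66) and Ifit2 (1.61). Lower calls numbered 0 in both, where 1.31% and 1.03% of genes were lower. None of the 6 calls held without cells carrying macrophage, monocyte or dendritic cell UMIs, and Oasl2 then had ratios of 0.839 and 0.818.

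Hashtag 1 of the Cd8 class stood apart, and its comparison with hashtag 3 was added after these levels were seen. Its summed ratio was 1.38 (1.36 to 1.41), and 12 members were higher, where 9.40% of genes were higher, with 0 lower, where 2.65% were. Oasl2 stood at 80.2 CPM against 27.2 CPM (2.94), Slfn5 at 170 CPM against 59.9 CPM (2.84), Gbp2 at 185 CPM against 65.4 CPM (2.83) and Ifit2 at 71.2 CPM against 25.5 CPM (2.79). Oasl1 (2.76), Isg15 (2.05), Rsad2 (2.03) and Irf7 (2.01) were also called, with Oas1a, Isg20, Cmpk2 and Stat2 between 1.66 and 1.70. The PYHIN genes were level, Ifi203 at 321 CPM against 318 CPM.

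Macrophage or monocyte markers stood at 2087 CPM in hashtag 1 and 284 CPM in hashtag 3 of the Cd8 class. Cells carrying macrophage, monocyte or dendritic cell UMIs were 21.7% of hashtag 1, and their members stood at 10579 CPM, against 6598 CPM in its other cells. In hashtag 3 they were 9.69%, and their members stood at 5213 CPM, below the 5869 CPM of its other cells. Without such cells the summed ratio was 1.12 (1.10 to 1.15) and 0 members were called. Hashtag 4 had 1939 CPM of these markers with members at 5868 CPM. The part of such cells in these levels was not tested beyond leaving them out.

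**Figure D5:**
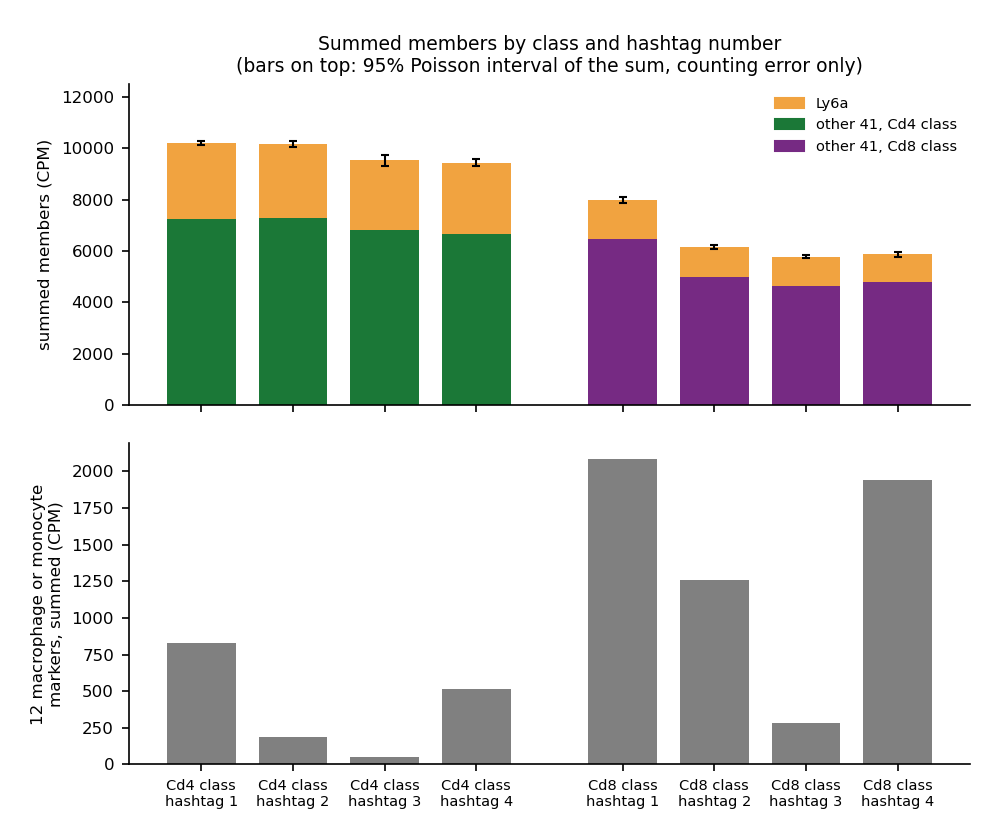
Summed members by class and hashtag number (top, CPM, Ly6a in orange, the other 41 in green or purple, 95% Poisson interval of the sum) and the sum of 12 macrophage or monocyte markers in the same cells (bottom, CPM). Hashtag 1 stands highest among Cd8-class cells at 7996 CPM and has 2087 CPM of the markers, while hashtag 4 has 1939 CPM of the markers and 5868 CPM of the members.

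Over the 9 comparisons of classes, Foxp3 and hashtag numbers, the 2 added ones left out, 21 members were called in none. They were the 4 sensors, the 3 PYHIN genes, Irf9, Ifit3, Oas1a, Eif2ak2, Herc6, Parp9, Parp14, Trim30a, Samd9l, Rtp4, Xaf1, Ifi35, Slfn8 and Ifi47. Their ratios of the Cd8 to the Cd4 class ran from 0.682 (Zbp1) to 0.987 (Eif2ak2). Oasl2 was called in 4 and Oasl1 in 3, and both are among the sparser members.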

How the data were processed

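Gene expression, hashtag and T cell receptor libraries were made from 1 pool of sorted cells, and the gene expression tables were used here. The authors deposited unnormalized UMI counts for each gene in each cell, antibody counts per cell, and other values, namely a hashtag number, identity and class per cell. The submitters' processing notes name Cell Ranger 3.1.0, Seurat 3.2.3 and the build mm10 without saying what each did; filters on cells, doublets and hashtag calls are not given in the sources used here. No cell was removed. Possible doublets (2 or more Trbv genes with at least 2 UMIs each) were left out as an alternative.

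UMIs of a group's cells were added up per gene and divided by the group's total without 117 receptor genes (0.325% of UMIs). Genes with at least 20 UMIs over both groups were compared. A ratio has an exact conditional binomial 95% interval, a level an exact Poisson one and a share an exact Clopper-Pearson one. Log2 ratios used a pseudocount of 5 CPM. Marker lists and pathway lists were chosen by name. The members and lists were chosen with earlier results of these data known. Named with values were all called members (up to 12 a comparison), the 5 highest and 5 lowest levels, up to 4 called genes a pathway list and the 12 other genes most marking the top 5% of cells. The value of 1 gene of the pathway lists is not reported here. Scripts used Python 3.11.15, numpy 2.4.6, pandas 2.3.3, scipy 1.17.1 and, for TMM scaling, edgeR 4.0.16 in R 4.3.3, and were tested on simulated data. Alternatives were TMM scaling, a mean per cell, thinning to 2000 UMIs, no UMI minimum, 2-fold calls, removal of cells carrying other cell types' UMIs, of cycling cells or of possible doublets, and single hashtag numbers with at least 20 cells per group.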

Additional observations from a re-analysis of the deposited data

How the results depend on the processing

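Counts of called members in this section come without the share of all genes called under the same alternative, so they have no background beside them. For the Cd8 against the Cd4 class, the summed ratio stayed below 1 under every alternative. It missed the call at 2-fold (0.624), within hashtag number 1 (0.784) and without Ly6a (0.708). Members called lower numbered 17 in thinned cells, 3 at 2-fold, 3 within hashtag number 1 (with 1 higher), and 19 without cells carrying UMIs of other cell types or of macrophages, monocytes or dendritic cells alone. The step for other cell types was uneven, keeping 1531 of 2681 Cd8-class and 2129 of 2477 Cd4-class cells. Its markers left out Bst2 but kept Irf8, which is also on the interferon gamma axis list, so it removed cells partly by an interferon-linked gene. The step for macrophages, monocytes or dendritic cells alone kept 2319 and 2375. For Cd8-identity Tdp cells against the Cd8 class, the summed ratio turned to 1.07 and 1.02 within hashtag numbers 3 and 4. By the mean per cell, a call here and below rests on size alone (at least 1.5-fold), without an interval, so its counts follow a looser rule. Members called lower were 5 by the mean per cell, 0 at 2-fold, 1 without cycling cells, 7 without cells with 2 Trbv genes and 6 within hashtag number 2, and 1 was called higher within each of hashtag numbers 1, 3 and 4. For Cd4-identity Tdp cells against the Cd4 class, members called lower were 8 by the mean per cell, 0 at 2-fold, 6 without cells of other types, 14 without cells with 2 Trbv genes, and 5, 8 and 0 within hashtag numbers 1, 2 and 4, with 2 higher in the last. Between the Tdp classes they were 11 by the mean per cell, 0 at 2-fold, 15 without cells of other types, 11 without cells carrying macrophage, monocyte or dendritic cell UMIs and 0 within hashtag number 1. For Foxp3-positive against Foxp3-zero cells of the Cd4 class, members called higher were 1 at 2-fold and 3, 12 and 3 within hashtag numbers 1, 2 and 3, and 1 was called lower by the mean per cell and without cycling cells. The summed ratio of hashtag 4 against 3 in the Cd8 class fell under 1 with TMM scaling (0.985), the mean per cell (0.994), thinning (0.994) and without macrophage, monocyte or dendritic cell UMIs (0.983). That of hashtag 2 against 3 did so without cells of other types (0.991). That of hashtag 2 against 1 in the Cd4 class reached 1.01 with TMM scaling, 1.00 without cells of other types and 1.01 without Ly6a. The cause was not tested. Leaving out Ly6a, and leaving out macrophage, monocyte or dendritic cell UMIs alone, were chosen after seeing the data.

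No paired analysis was possible because all cells came from 1 library of pooled mice. The number of cells limits single genes in the 93 Cd4-identity Tdp cells, where Oasl1 rested on 4 UMIs, and in the 78 Foxp3-positive cells of the Cd8 class. Leaving out macrophage, monocyte or dendritic cell UMIs for pathway genes was also chosen after seeing the data.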
